A study of Homo sapiens with 6 samples.

Results

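Aminoacyl-tRNA synthetases are the enzymes that load each amino acid onto its tRNA before translation. The genes of 20 cytosolic synthetases or synthetase subunits, 16 mitochondrial synthetases and 3 non-catalytic proteins of the cytosolic synthetase complex were examined, 39 of the 58735 genes in the deposited table. The rule for membership was the gene name and used no expression value, although it was proposed with earlier results of these data known, and each name occurred in the table. RNA sequencing (RNA-seq) had been performed in MM.1S, an established human multiple myeloma cell line, transfected with a negative control siRNA (control, 3 libraries) or with siRNA against PRMT1 (PRMT1 KD, 3 libraries). PRMT1 is a protein arginine methyltransferase. The siRNA was used at 100 nM by lipid transfection, and the cells for RNA-seq were taken 72 h later. Both groups therefore share the cell line and the transfection, and they differ in the siRNA. The sources used here do not say which of the PRMT1 siRNAs was applied in the RNA-seq, nor whether the libraries of a group came from separate cultures. The study's methods call its replicates biological and dependent, and p-values measure the spread between these libraries.

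The authors deposited FPKM values, which divide the fragments counted on a gene by gene length and library size. Reads worked back from these values came to 14439217 to 16465026 per library. The mRNA of PRMT1 itself, at 61.1 ± 1.97 FPKM in control (SD, n = 3), was down to 13.3 ± 0.775 FPKM after knockdown (SD, n = 3), a change of -2.13 on the log2 scale (adjusted p = 2.77e-05 with limma). All 8 plasma cell markers checked were at 1 FPKM or more on average, among them IRF4 at 115 to 118 FPKM. The myeloid, stromal and erythroid markers each summed to at most 0.146 FPKM in any library, whereas CD3E, a gene otherwise typical of T cells, was at 32.1 to 39 FPKM beside CD3D and CD2 under 1 FPKM. Of the 8 plasma cell markers, the surface receptor SLAMF7 fell, by 0.65 on the log2 scale (limma adjusted p = 0.00515), and the other 7 did not pass the test. Of those, MZB1 (0.11) and CD38 (0.24) were higher without overlap, PRDM1 (-0.18) and XBP1 (-0.13) were lower without overlap, and TNFRSF17 (0.12), IRF4 (0.0049) and SDC1 (-0.018) overlapped between the groups. Changes below were tested with limma on log2(FPKM + 1) over the 13585 genes with a mean of at least 1 FPKM, and a gene is called changed at a Benjamini-Hochberg adjusted p under 0.05. A log2 fold change is PRMT1 KD minus control on that scale, on which low genes appear to change less than they do.

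Human cells use separate sets of synthetases in the cytosol and in mitochondria, and both sets are encoded in the nucleus. Among the synthetases, names ending in 2 mark the mitochondrial enzymes. GARS and KARS supply both compartments from a single gene, EPRS joins the glutamyl and prolyl enzymes in a single protein, and FARSA and FARSB are the subunits of the phenylalanyl enzyme. No mitochondrial glutaminyl enzyme is listed, because mitochondria charge that tRNA with glutamate through EARS2 and then amidate it. Several cytosolic synthetases are held together with the scaffold proteins AIMP1, AIMP2 and EEF1E1 in a multi-synthetase complex. Many cytosolic synthetase genes are known targets of ATF4, the transcription factor of the integrated stress response, and WARS, the tryptophanyl enzyme, is known to be induced by interferon gamma. Plasma cells and myeloma cells secrete large amounts of immunoglobulin and depend on a high rate of translation.

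Of the 38 members tested, 2 changed after PRMT1 knockdown, and both fell: WARS in the cytosol and RARS2, the arginyl enzyme, in mitochondria. This was 5.26% of the members, beside 2.05% of all genes tested that changed in either direction and 0.986% that fell. No member rose with an adjusted p under 0.05. At an unadjusted p under 0.05 there were 5 members, all lower, which was 13.2% of those tested beside 19.5% of all genes in either direction. Of all 13585 genes tested, 1287 were lower and 1368 higher at that threshold, so the 19.5% is not a share of lower genes. The PRMT1 KD and control libraries did not overlap in 6 of 38 members (15.8%), beside 25.9% of all genes. The median log2 fold change of the members was 0.00098, beside 0.0095 over all genes tested, with 19 members above 0 and 19 below. The remaining member, SARS2, had a mean under 1 FPKM and was not tested.

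**Figure D1:**
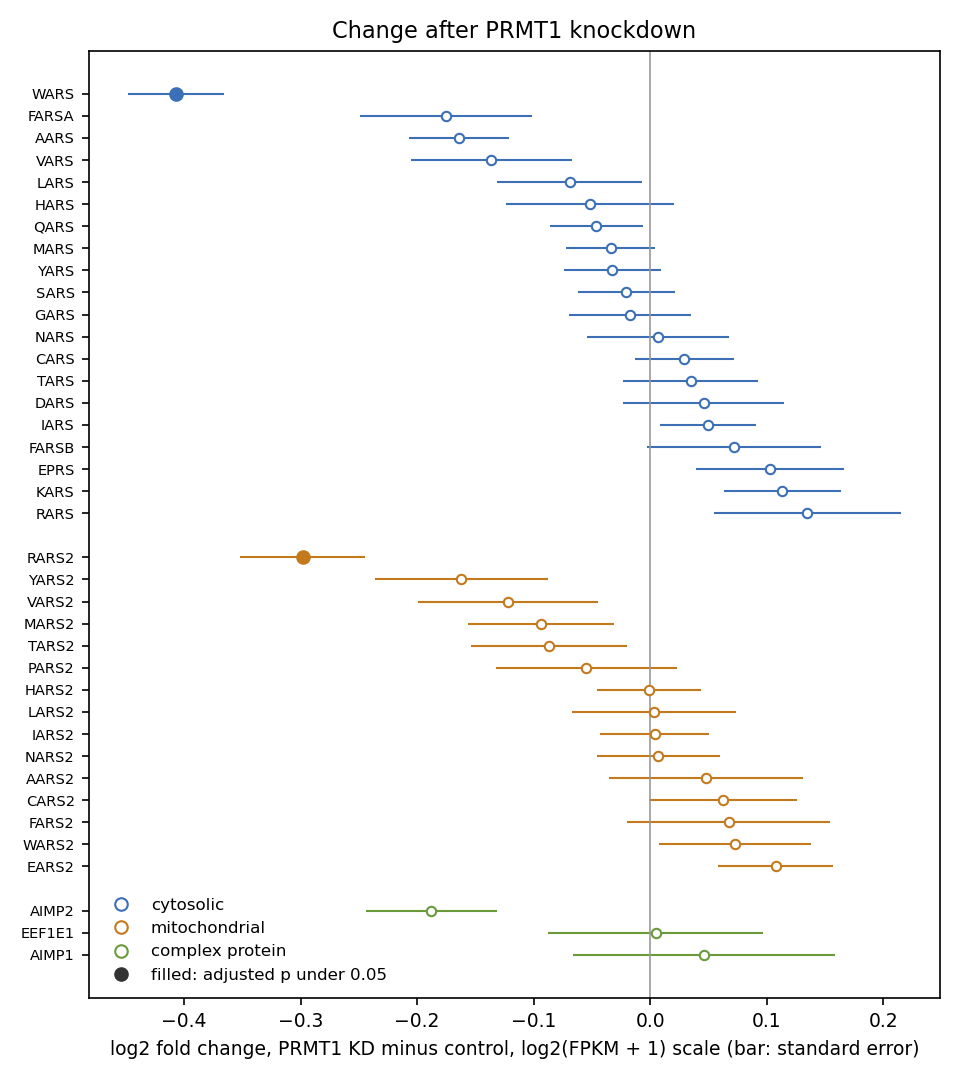
Log2 fold change of each tested gene, PRMT1 KD minus control on the log2(FPKM + 1) scale (horizontal axis), with its standard error as a bar, for 20 cytosolic, 15 mitochondrial and 3 complex protein genes (vertical axis, ordered within each group). WARS at -0.41 and RARS2 at -0.30 are the filled points, with an adjusted p under 0.05, and the other genes lie between -0.19 and 0.13.

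WARS (ENSG00000140105, chromosome 14, 100333788 to 100376805, GRCh38, minus strand) was expressed at 131, 131 and 126 FPKM in the control libraries and at 94.8, 97.1 and 99.96 FPKM in the PRMT1 KD libraries. Every PRMT1 KD library lay below every control library. The PRMT1 KD mean was 75.2% of the control mean, with a log2 fold change of -0.41 (standard error 0.041, 95% interval -0.50 to -0.31, limma adjusted p = 0.0144). The exact permutation p (two-sided) was 0.1, which is the lowest possible with 3 libraries in each group. Its reads numbered 13207 to 13774 per control library and 8885 to 9950 per PRMT1 KD library. In fits that left out a library, its adjusted p was above 0.05 without control replicate 1 (limma adjusted p = 0.104), control replicate 2 (0.0812), PRMT1 KD replicate 1 (0.0514) or PRMT1 KD replicate 2 (0.0859), with log2 fold changes of -0.43 to -0.39 over the 6 such fits, and it was 0.0559 without the mean-variance trend. Of its exonic bases, 10.6% are shared with genes on the opposite strand, the largest of which was listed at 0 in every library, and none with a gene on the same strand. In bulk RNA, fewer cells expressing a gene and less RNA of it per cell cannot be told apart.

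RARS2 (ENSG00000146282, chromosome 6, 87514378 to 87590003, GRCh38, minus strand) was expressed at 13.8, 13.2 and 14.2 FPKM in the control libraries and at 11.3, 11.2 and 10.5 FPKM in the PRMT1 KD libraries. The groups did not overlap, and the PRMT1 KD mean came to 80.0% of control. On the log2 scale RARS2 changed by -0.30 (standard error 0.053, 95% interval -0.42 to -0.17, limma adjusted p = 0.0477, exact permutation p = 0.1). This value lay close to the threshold, and leaving out any of the 6 libraries raised the limma adjusted p to between 0.0927 and 0.183, with log2 fold changes of -0.32 to -0.27. It was also above 0.05 with no filter on low values (0.105), on values rescaled to TPM (0.0652) and without the mean-variance trend (0.0844). Its reads numbered 543 to 598 per control library and 407 to 473 per PRMT1 KD library, and it shares no exonic base with another gene. ORC3, a subunit of the origin recognition complex whose annotated start lies 64 bases from that of RARS2 on the opposite strand, was expressed at 7.63 to 9.48 FPKM in the control libraries and 8.21 to 10.3 FPKM in the PRMT1 KD libraries, and its groups overlapped (log2 fold change 0.12, limma adjusted p = 0.563).

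AARS, the alanyl enzyme, and AIMP2, a scaffold of the complex, were the other members that lay lower in PRMT1 KD without overlap, and neither passed the adjusted threshold. AARS was at 251, 247 and 233 FPKM in the control libraries and 217, 219 and 216 FPKM in the PRMT1 KD libraries (log2 fold change -0.16, standard error 0.043, limma adjusted p = 0.105). AIMP2 was at 22.6, 20.0 and 21.8 FPKM in the control libraries and 18.3, 18.9 and 18.9 FPKM in the PRMT1 KD libraries (log2 fold change -0.19, standard error 0.056, limma adjusted p = 0.135). AIMP2 shares 28.9% of its exonic bases with EIF2AK1 on the opposite strand, a gene at 59.8 to 69.2 FPKM. The log2 fold change of EIF2AK1 was -0.13 (limma adjusted p = 0.191). Without a known strand setting, it cannot be told how reads on the shared bases were counted. FARSA was at 60.3, 57.3 and 51.6 FPKM in the control libraries and 52.7, 50.6 and 46.2 FPKM in the PRMT1 KD libraries. Its groups overlapped at the lowest control and the highest PRMT1 KD library (log2 fold change -0.18, limma adjusted p = 0.254). For FARSB, the other subunit of the same enzyme, the log2 fold change was 0.072 (limma adjusted p = 0.637).

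**Figure D2:**
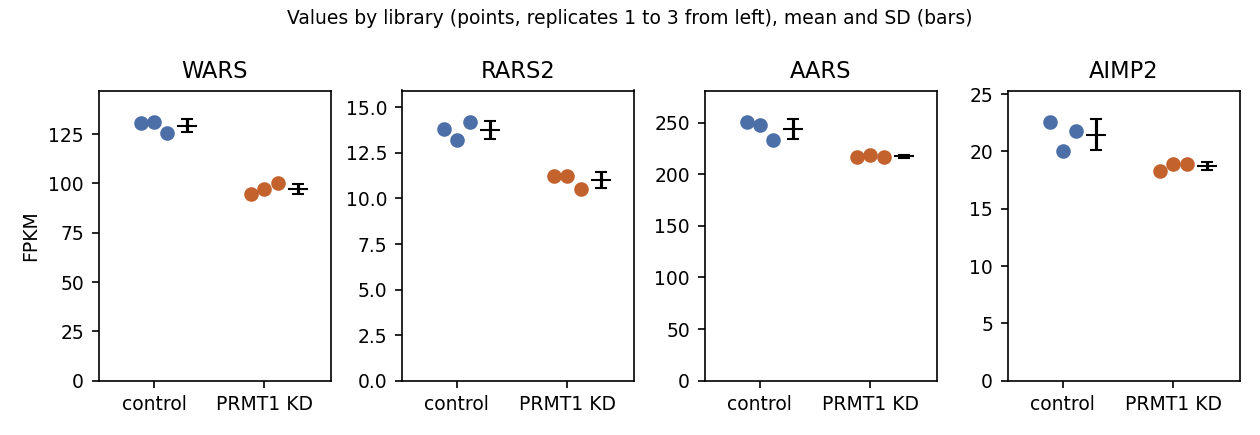
FPKM (vertical axis, from 0) in the 3 control and 3 PRMT1 KD libraries for WARS, RARS2, AARS and AIMP2, with each library as a point and the mean and SD beside it. In all 4 genes the PRMT1 KD points lie below the control points, and WARS shows the widest gap, from 126 FPKM in its lowest control library to 99.96 FPKM in its highest PRMT1 KD library.

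At the other end, the 5 members with the highest log2 fold changes were RARS (0.13), KARS (0.11), EARS2 (0.11), EPRS (0.10) and WARS2 (0.073), and their adjusted p from limma lay between 0.273 and 0.585. KARS was at 53.1, 52.7 and 50.5 FPKM in the control libraries and 53.4, 58.6 and 57.5 FPKM in the PRMT1 KD libraries. EARS2 was at 10.5, 10.9 and 10.1 FPKM in the control libraries and 11.3, 11.3 and 11.5 FPKM in the PRMT1 KD libraries. These were the members whose PRMT1 KD libraries all lay above the control libraries. RARS was at 18.5, 19.3 and 18.9 FPKM in the control libraries and 18.9, 20.3 and 23.6 FPKM in the PRMT1 KD libraries, and only PRMT1 KD replicates 2 and 3 lay above every control library. EPRS was spread likewise, with 86.4 to 91.6 FPKM in the control libraries and 89.1, 93.6 and 104 FPKM in PRMT1 KD replicates 1, 2 and 3. PRMT1 KD replicate 3 was the highest of the 6 libraries in 15 of the 38 members tested (39.5%), beside 25.7% of all genes tested. Over the 36 members tested and not called, the 95% intervals of the log2 fold change reached from -0.35 to 0.32, and their half-widths ran from 0.090 for MARS to 0.27 for AIMP1. The interval included 0 in 33 of the 36, the exceptions being AARS, FARSA and AIMP2.

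The groups overlapped in each of the 10 other members that are not described one by one, and none of these passed the test. Of the cytosolic ones, the valyl VARS was the lowest, at 79.9, 82.3 and 71.1 FPKM in the control libraries and 73.3, 72.2 and 66.2 FPKM in the PRMT1 KD libraries (log2 fold change -0.14, limma adjusted p = 0.332), and LARS, YARS, SARS and DARS lay between -0.069 and 0.046. Of the mitochondrial ones, the tyrosyl YARS2 was the lowest, at 9.23, 8.90 and 9.70 FPKM in the control libraries and 8.95, 7.42 and 8.24 FPKM in the PRMT1 KD libraries (log2 fold change -0.16, limma adjusted p = 0.285). The valyl VARS2 followed at -0.12, and PARS2, LARS2 and AARS2 lay between -0.055 and 0.048. Both valyl genes and both tyrosyl genes thus lay below 0, as did both methionyl and both histidyl genes. None of these passed the test, and 19 of the 38 members tested lay below 0. The remaining log2 fold changes were -0.052 for HARS, -0.017 for GARS, -0.087 for TARS2, -0.0013 for HARS2, 0.0037 for IARS2, 0.0070 for NARS2, 0.062 for CARS2 and 0.067 for FARS2, with limma adjusted p between 0.516 and 0.992.

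RefSeq promoters (GRCh38.p14, 250 bases before to 50 bases after the start of each gene) were matched for 33 of the 39 members. They were searched on both strands for TGATGNAA, a form of the element bound by ATF4 together with C/EBP proteins. The exact form TGATGCAA, which lies within TGATGNAA and was added after the matches were seen, occurred in 6 of 16 cytosolic promoters (37.5%), in 0 of 14 mitochondrial promoters and in 0.923% of all 27305 promoters. The looser TGATGNAA occurred in the same 6 cytosolic promoters, in 1 mitochondrial promoter (YARS2) and in 3.67% of all promoters. The 30-base windows around the 6 cytosolic matches are shown because, of the motifs searched, the ATF4 and C/EBP element was found in the most members. They are written 5′ to 3′ on the strand of the gene, with the element in capitals, which reads TTGCATCA where the match is on the opposite strand.
AARS: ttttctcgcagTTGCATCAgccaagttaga
CARS: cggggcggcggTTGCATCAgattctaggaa
IARS: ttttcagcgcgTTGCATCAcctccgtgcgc
MARS: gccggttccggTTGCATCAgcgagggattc
NARS: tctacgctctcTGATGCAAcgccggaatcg
TARS: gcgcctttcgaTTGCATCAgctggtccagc
The windows lie at chr16:70289675-70289704 (AARS, minus strand), chr11:3057407-3057436 (CARS, minus strand), chr9:92293692-92293721 (IARS, minus strand), chr12:57488053-57488082 (MARS, plus strand), chr18:57621804-57621833 (NARS, minus strand) and chr5:33440956-33440985 (TARS, plus strand). In 5 of the 6 genes the element begins within 15 bases of the RefSeq start, and in AARS it begins at position -187 from it. Relative to these RefSeq starts, the GENCODE gene starts lie at -37 bases in AARS, -59 in IARS and -190 in CARS. They lie at -269 in TARS, -377 in NARS and -12623 in MARS, where negative values are upstream.

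None of the 6 genes with the element passed the test. AARS, with the values given above, lay lower without overlap. IARS was at 74.0, 73.8 and 74.9 FPKM in the control libraries and 74.4, 76.7 and 79.6 FPKM in the PRMT1 KD libraries. MARS was at 70.1, 70.2 and 68.4 FPKM in the control libraries and 66.7, 68.9 and 68.2 FPKM in the PRMT1 KD libraries. In both, the groups overlapped, and the log2 fold changes were 0.049 and -0.034 (limma adjusted p = 0.553 and 0.671). CARS, NARS and TARS had log2 fold changes of 0.029, 0.0066 and 0.035 (limma adjusted p = 0.749, 0.968 and 0.787). The median over the 6 genes was 0.018, and over the 10 cytosolic genes with a promoter and without the element it was -0.019. Those 6 genes were singled out after their values were seen. ATF4 mRNA was at 287, 300.3 and 278 FPKM in the control libraries and 273, 273 and 274 FPKM in the PRMT1 KD libraries, a change of -0.077 on the log2 scale (limma adjusted p = 0.37). The ATF4 values thus lay lower in PRMT1 KD without overlap.

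The E-box CACGTG occurred in 1 of 16 cytosolic and 3 of 14 mitochondrial promoters, beside 7.43% of all promoters. The element GCATGCGC of NRF1, a factor known to regulate nuclear genes of mitochondrial proteins, occurred in 0 of 16 cytosolic and 2 of 14 mitochondrial promoters (14.3%), beside 3.27% of all promoters. The mitochondrial matches were in MARS2 and YARS2. The methionyl MARS2 promoter holds the NRF1 element on both strands in an overlapping stretch at chr2:197705333-197705362, shown here with the plus-strand match in capitals.
MARS2: gacccggctgcGCATGCGCctctcacacgt
MARS2 was at 16.7, 17.6 and 15.2 FPKM in the control libraries and 15.2, 15 and 15.8 FPKM in the PRMT1 KD libraries (log2 fold change -0.094, limma adjusted p = 0.46). None of these motifs was found in the windows of WARS, RARS2 or AIMP2, which says only that these letters are absent there.

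Levels differed far more between genes than between the groups. The median of the gene means was 64.9 FPKM for the 20 cytosolic genes, with a range of 8.44 to 230.5 FPKM, and 10.9 FPKM for the 16 mitochondrial genes, with a range of 0.786 to 47.01 FPKM. In the cytosol AARS stood highest, followed by WARS and GARS, and HARS, CARS and RARS stood lowest. Such ranks are of FPKM and depend on the gene lengths by which it divides. The order of WARS and GARS differed between the groups. In the control libraries GARS, the glycyl enzyme of both compartments, was at 109, 109 and 108 FPKM and lay below WARS, whereas in the PRMT1 KD libraries it was at 102, 107 and 115 FPKM and lay above the 94.8 to 99.96 FPKM of WARS. At the low end, HARS was at 8.48, 9.49 and 7.88 FPKM in the control libraries and 8.20, 8.52 and 8.06 FPKM in the PRMT1 KD libraries, and no HARS value reached any value of CARS or RARS. In mitochondria TARS2, IARS2 and NARS2 stood highest, and SARS2, FARS2 and WARS2 lowest. NARS2 was at 23.1, 21.4 and 22.0 FPKM in the control libraries and 21.2, 22.3 and 23.2 FPKM in the PRMT1 KD libraries, about as spread within as between the groups. FARS2 was at 3.23, 2.91 and 3.14 FPKM in the control libraries and 2.89, 3.42 and 3.58 FPKM in the PRMT1 KD libraries, and the groups overlapped. TARS2 (43.9 to 52.6 FPKM) and IARS2 (44.7 to 49.0 FPKM) did not differ beyond the spread of their libraries. CARS (18.8 to 19.7 FPKM) and RARS (18.5 to 23.6 FPKM) likewise overlapped, and so did WARS2 (4.27 to 5 FPKM) and CARS2 (4.32 to 4.96 FPKM).

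**Figure D3:**
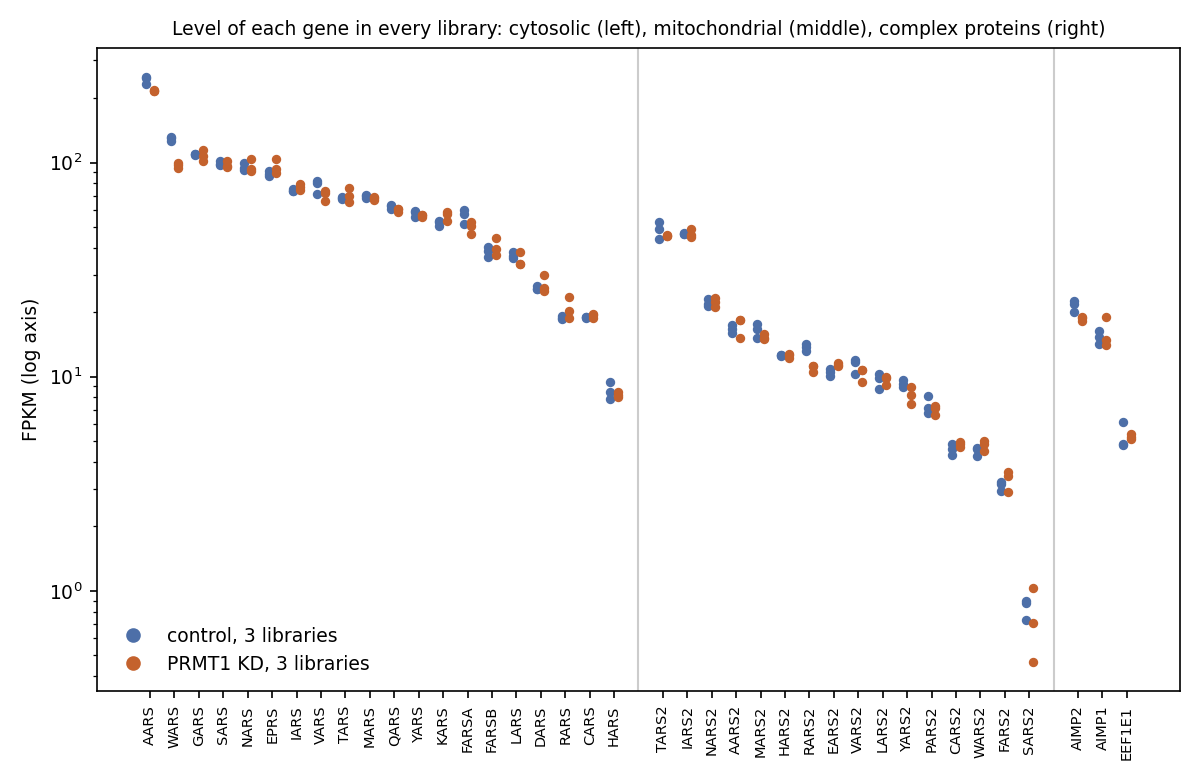
FPKM (vertical log axis) of each gene in the 3 control and 3 PRMT1 KD libraries, 1 point per library, ordered by mean level within the cytosolic, mitochondrial and complex protein genes. Most cytosolic genes lie above most mitochondrial genes, AARS at a mean of 230.5 FPKM is the highest and SARS2 at 0.786 FPKM the lowest.

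The cytosolic and mitochondrial enzymes were then set against each other. Summed over the 20 cytosolic genes, the level was 1432 ± 20.6 FPKM (SD, n = 3) in control and 1372 ± 40.5 FPKM (SD, n = 3) in PRMT1 KD. The cytosolic sum, which includes GARS and KARS, was 1409 to 1449 FPKM in the control libraries and 1333 to 1414 FPKM in the PRMT1 KD libraries, so the groups overlapped. Summed over the 16 mitochondrial genes, the level was 238 ± 7.34 FPKM (SD, n = 3) in control and 231 ± 0.394 FPKM (SD, n = 3) in PRMT1 KD. That sum overlapped as well, at 229 to 242 FPKM in control and 230 to 231 FPKM in PRMT1 KD. The ratio of the sums was 5.94 to 6.15 in control and 5.77 to 6.12 in PRMT1 KD, so the groups overlapped. The median log2 fold change was -0.019 for the cytosolic genes, 9 of which were above 0 and 11 below, and 0.0032 for the 15 mitochondrial genes tested, 8 above and 7 below. Because the members had been proposed with results of these data known, no test was run on the sums or the medians. By catalytic class, WARS was the gene called among the 10 cytosolic class I genes, whose median was -0.033, and 0 of the 10 class II genes were called, with a median of -0.0054.

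For 13 amino acids, the cytosolic and mitochondrial genes share a name and can be compared as a ratio of FPKM within each library. In 12 of these pairs the cytosolic gene was the higher in every library. The exception was histidine, with a HARS to HARS2 ratio of 0.626 to 0.754 in control and 0.638 to 0.668 in PRMT1 KD. That order depends on the gene length by which FPKM divides, 7853 bases for HARS and 3736 for HARS2. By reads HARS was the higher, with 1022 to 1202 against 758 to 777 per control library. In the PRMT1 KD libraries the reads were 963 to 1063 against 687 to 757. For tryptophan, WARS over WARS2 was 30.6, 28.3 and 27.3 in control and 21.0, 20.0 and 20.0 in PRMT1 KD, a difference of -0.50 on the log2 scale (standard error 0.055). WARS2 itself was at 4.27, 4.64 and 4.61 FPKM in the control libraries and 4.52, 4.86 and 5 FPKM in the PRMT1 KD libraries, a change of 0.073 on the log2 scale (limma adjusted p = 0.585). For arginine the ratio moved the other way. RARS over RARS2 was 1.34, 1.46 and 1.33 in control and 1.68, 1.81 and 2.25 in PRMT1 KD, a difference of 0.46 on the log2 scale (standard error 0.13). AARS over AARS2 was 14.4, 14.8 and 14.6 in control and 11.7, 11.9 and 14.3 in PRMT1 KD. In these 3 of 13 pairs the groups did not overlap, and in the other 10 they did. Among single genes, 25.9% of all tested did not overlap. The tryptophan and arginine ratios contain WARS and RARS2, the members already called.

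**Figure D4:**
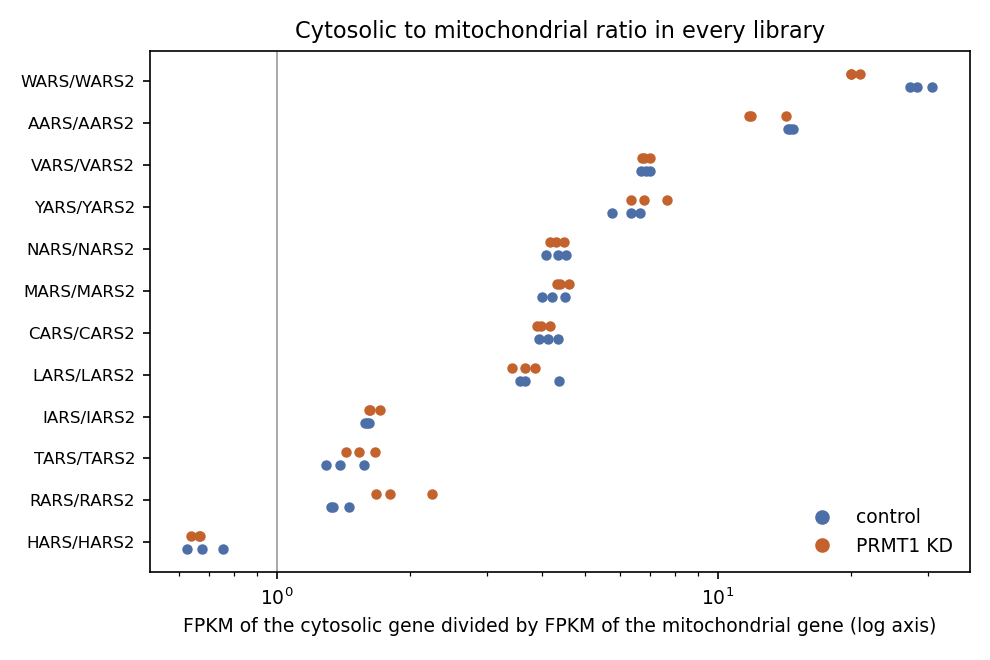
FPKM of the cytosolic gene divided by FPKM of the mitochondrial gene (horizontal log axis) in each library for 12 amino acids, with control and PRMT1 KD libraries as separate points and a line at 1. Tryptophan (20.0 to 21.0 in PRMT1 KD, 27.3 to 30.6 in control) and arginine (1.68 to 2.25 in PRMT1 KD, 1.33 to 1.46 in control) separate in opposite directions, and histidine lies below 1. Serine is left out because SARS2 was under 1 FPKM.

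In the multi-synthetase complex, 0 of 11 genes (DARS, EPRS, IARS, KARS, LARS, MARS, QARS, RARS and the 3 scaffold genes) had an adjusted p under 0.05 with limma, beside 2.05% of all genes, and 1 of 11, AIMP2, had an unadjusted p under 0.05, beside 19.5% of all genes. Their median log2 fold change was 0.046, with 7 above 0 and 4 below, and it turned to -0.027 without PRMT1 KD replicate 3 and to -0.0056 without control replicate 2. AIMP1 was at 15.4, 14.1 and 16.4 FPKM in the control libraries and 14.0, 14.9 and 18.9 FPKM in the PRMT1 KD libraries. EEF1E1 was at 4.81, 4.83 and 6.15 FPKM in the control libraries and 5.23, 5.11 and 5.42 FPKM in the PRMT1 KD libraries. Both overlapped between the groups, and the log2 fold changes were 0.046 and 0.0047 (limma adjusted p = 0.863 and 0.985). The glutaminyl QARS over EARS2, the mitochondrial gene that begins the same product, was 5.82 to 5.99 in control and 5.23 to 5.38 in PRMT1 KD, without overlap, while neither gene passed the test (log2 fold change -0.046 for QARS and 0.11 for EARS2). The other 4 ratios of genes with unlike names, EPRS over EARS2, EPRS over PARS2, FARSA over FARS2 and FARSB over FARS2, overlapped between the groups. EPRS over EARS2, with the same denominator, was 8.48 ± 0.554 in control and 8.404 ± 0.567 in PRMT1 KD (SD, n = 3).

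The level of some members rests on few reads. SARS2, the mitochondrial seryl enzyme, was listed at 0.878, 0.729 and 0.899 FPKM in the control libraries and 1.03, 0.709 and 0.467 FPKM in the PRMT1 KD libraries, with 23 to 55 reads in all. It shares 57.0% of its exonic bases with other genes. AC011455.2 on the same strand, at 0 to 0.0308 FPKM, covers 46.2% of all SARS2 exonic bases. EEF1E1 shares 18.6% of its exonic bases with EEF1E1-BLOC1S5 and VARS2 22.0% with GTF2H4, both on the same strand. HARS and HARS2 start head to head, overlap by 436 bases at their starts, and share 8.38% and 15.8% of their exonic bases with other genes. The part of this sharing in the listed levels was not tested. FARS2, WARS2 and PARS2 had 227 to 316 reads per library, and EEF1E1 had 155 to 214.

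Only protein-coding genes were searched for starts beside those of the members. The annotated starts of 7 further such genes lie head to head with that of a member, within 1000 bases or overlapping by at most 500. None of the 7 had an adjusted p under 0.05. They were DDX19B beside AARS, WDR25 beside WARS, UBFD1 beside EARS2, LYRM4 beside FARS2, ORC3 beside RARS2, MRPS12 beside SARS2 and PMS2 beside AIMP2, and their log2 fold changes ran from -0.093 to 0.12. WDR25, whose annotated start overlaps that of WARS by 387 bases, was at 5.37, 5.26 and 4.99 FPKM in the control libraries and 4.97, 5.15 and 4.89 FPKM in the PRMT1 KD libraries (log2 fold change -0.048, limma adjusted p = 0.695). The groups overlapped in each of the 7.

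Genes that act before or after the synthetases were read from further lists, and 0 of the 69 tested changed at an adjusted p under 0.05 with limma, beside 8 with an unadjusted p under 0.05. Over all genes tested these shares were 2.05% and 19.5%. In the cytosol the elongation factor EEF1A1, which carries charged tRNA to the ribosome, was at 1966, 1918 and 1884 FPKM in the control libraries and 2110, 2215 and 2425 FPKM in the PRMT1 KD libraries. Its groups did not overlap, and the difference did not pass the adjusted threshold (log2 fold change 0.22, limma adjusted p = 0.114). EEF1D, the lowest of the 4 elongation genes tested, had a log2 fold change of -0.10. EEF1G, another subunit of the elongation factor complex, is listed at 0 in all 6 libraries. It shares 99.9% of its exonic bases with AP002990.1, listed at 0.227 to 0.733 FPKM.

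Among 13 mitochondrial translation factors the median log2 fold change was -0.003. The lowest was MTFMT, which formylates the methionyl initiator tRNA, at 4.64 to 5.01 FPKM in control and 3.88 to 4.35 FPKM in PRMT1 KD (log2 fold change -0.19, limma adjusted p = 0.188). The highest was QRSL1, a subunit of the amidotransferase that acts after EARS2 (0.068, limma adjusted p = 0.613). Of 5 tRNA editing and modification genes, 4 were tested, from AARSD1 at -0.011 to DTD2 at 0.099, with a median of 0.080. Among 27 genes of tRNA transcription and processing the median was 0.022, from POLR3K, a subunit of RNA polymerase III, at -0.24 (limma adjusted p = 0.138) to GTF3C4, a subunit of the factor TFIIIC, at 0.16 (limma adjusted p = 0.197).

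Among 21 integrated stress response genes tested, 15 were below 0 and 6 above, with a median of -0.021. Over all 13585 genes tested, 6442 were below 0 and 7143 above. The lowest was CHAC1, a glutathione-degrading enzyme and ATF4 target, at 24.9, 27.0 and 23.4 FPKM in the control libraries and 19.8, 20.2 and 18.3 FPKM in the PRMT1 KD libraries (log2 fold change -0.35, limma adjusted p = 0.051). SHMT2, the mitochondrial serine hydroxymethyltransferase, was at 146 to 149 FPKM in control and 125 to 132 FPKM in PRMT1 KD (log2 fold change -0.19, limma adjusted p = 0.0646). In both, the groups did not overlap and the adjusted p stayed above 0.05. Of the 21 genes, 5 did not overlap (23.8%), all lower and ATF4 among them, beside 25.9% of all genes tested in either direction. That 25.9% is made up of 1668 genes lower and 1845 higher, so it is not a share of lower genes. EIF2AK4, the kinase GCN2 that senses uncharged tRNA, had the highest log2 fold change of the list (0.13, limma adjusted p = 0.507).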

How the data were processed

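RNA-seq was analysed in 3 control and 3 PRMT1 KD libraries, grouped by the sample titles. FPKM was deposited by the authors for each gene in each library, with gene lengths. Per the labels, reads were counted with featureCounts 1.5.0-p3 on hg38. The aligner, annotation release and strand setting are not given in the sources used here. All 58735 gene identifiers and coordinates matched GENCODE release 29. FPKM multiplied by gene length gave whole reads (within 0.01) for 100% of values above 0, and the implied library sizes equalled median-of-ratios scaling, so values already include a scaling between libraries.

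Expression was tested with limma 3.58.1 in R 4.3.3 on log2(FPKM + 1), two-sided, with empirical Bayes and a mean-variance trend, without the replicate number. Exact permutation tests and figures used Python 3.11.15. In simulated data for this comparison, 13596 genes were tested, among them 188 of 200 genes changed by 1 on the log2 scale. Of the 200, 155 were called in the right direction (77.5%), with 14 false calls. Log2 fold changes of the members tested ran from -0.41 to 0.13, and recovery of changes of that size was not tested.

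The members and lists were chosen with earlier results of these data known. Values are given for PRMT1, the members called, the 5 highest and 5 lowest log2 fold changes, the 3 highest and 3 lowest levels of each compartment, AIMP1, AIMP2, EEF1E1, WARS, WARS2, GARS, KARS and EARS2, and the extremes of the other lists. Members beyond these, SLAMF7, and the genes beside promoter elements or divergent starts were named after their values were seen. Alternatives were the pseudocount, filter, scaling, trend, replicate block, voom on reads worked back, and each library left out. A planned comparison of protein sequences was not made here.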

Additional observations from a re-analysis of the deposited data

How the results depend on the processing

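PRMT1 kept its call in each of the 14 alternatives (log2 fold change -2.21 to -2.09). The medians of the cytosolic, mitochondrial and complex genes moved in each by less than their SD over the 3 PRMT1 KD libraries. For that SD (0.052, 0.032 and 0.078) each PRMT1 KD library was set against the control mean, and the spread of the control libraries did not enter. Each of these medians lay on both sides of 0 over the alternatives, from -0.037 to 0.0058, -0.028 to 0.021 and -0.027 to 0.072. WARS was lower in all 14 (-0.43 to -0.39) and kept its call in 9. RARS2 was lower in all 14 (-0.32 to -0.27) and kept its call in 4. Besides the fits that left out a library, WARS lost its call without trend (limma adjusted p = 0.0559), and RARS2 lost it with no filter (0.105), rescaled to TPM (0.0652), without trend (0.0844) and with the replicate block (0.0634). Members called thus numbered 1 with no filter, 1 rescaled to TPM, 1 with the replicate block, 0 without trend and 0 to 1 when a library was left out. Without control replicate 3 or PRMT1 KD replicate 3 WARS was the gene called, and without any of the other 4 libraries there was 0.

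Genes called over the whole table numbered 279, with 35 under no filter, 473 at a mean of at least 5 FPKM, 927 with voom, 43 without trend, and 13 to 95 when a library was left out (13 without control replicate 1). Median scaling gave 90 higher and 145 lower and TPM 227 higher and 131 lower, against 145 and 134. From the other lists, 2 genes were called at a mean of at least 5 FPKM (SHMT2, CHAC1), 1 rescaled to TPM (EEF1A1), 3 with voom (EEF1A1, SHMT2, CHAC1) and 1 with the replicate block (CHAC1). The median of the elongation list, 0.083, became 0.064 with median scaling, 0.10 rescaled to TPM and 0.048 to 0.10 without a library. That of the editing list became 0.062, 0.099 and 0.049 to 0.091 in the same settings. That of the tRNA processing list became 0.0067 at a mean of at least 5 FPKM, 0.0034 with median scaling, 0.038 rescaled to TPM and -0.033 to 0.029 without a library, and that of the stress response list -0.076 to -0.014 without a library. The cause was not tested.

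Members near 0 changed sign. With median scaling these were NARS (-0.012), IARS2 (-0.015), LARS2 (-0.015), NARS2 (-0.011) and EEF1E1 (-0.014), and rescaled to TPM they were GARS (0.0024) and HARS2 (0.017). When a library was left out, signs changed for DARS (-0.027 to 0.095), GARS (-0.064 to 0.024), HARS (-0.11 to 0.013), NARS (-0.051 to 0.043), TARS (-0.019 to 0.084), HARS2 (-0.013 to 0.014), IARS2 (-0.032 to 0.032), LARS2 (-0.058 to 0.050), NARS2 (-0.022 to 0.039), PARS2 (-0.11 to 0.012), AIMP1 (-0.077 to 0.13) and EEF1E1 (-0.045 to 0.10).

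Same-numbered libraries deviated from their group means with correlations of 0.0200, 0.0631 and 0.101, so the numbers were not taken as pairs. The replicate block gave 204 genes called in place of 279. The SARS2 level rests on 23 to 55 reads per library, and the cause of this low count was not tested.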
